A study of Mus musculus with 10 samples.

Results

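This report compares mouse hepatocytes given palmitate after Neurotropin with untreated hepatocytes, to name the genes and pathways that remained changed in the presence of both. Its members are the 2 libraries labelled PA+NTP and the 2 labelled Vehicle, 4 of the 10 libraries of the series. All 10 were made from primary hepatocytes of C57BL/6 mice, liver parenchymal cells isolated by collagenase perfusion. The labels give DMEM with 10% FBS as the medium, and the study's methods describe a change to serum-free medium before most treatments. The PA+NTP cells received Neurotropin (NTP) at 0.4 NU/mL for 1 h and then 200 µM palmitate (PA) for 24 h, and the Vehicle cells received neither. The dose of NTP comes from the study's own description, since the labels give none. The other groups, with 2 libraries each, were PA alone, 12 µM linoleate (LA) alone, and LA after the same NTP pretreatment (LA+NTP). No library of the series had NTP without a free fatty acid (FFA), so an effect of NTP itself and what was left of the effect of PA cannot be told apart in PA+NTP against Vehicle. The labels do not say that replicates were separate cultures or animals, so the p-values measure the spread between these libraries, which may be technical.

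Palmitate is the main saturated FFA of the blood and of liver fat. In hepatocytes and in liver macrophages, an excess of it is known to trigger inflammatory signaling through NF-κB, endoplasmic reticulum stress and the loss of metabolic liver functions, whereas the unsaturated linoleate is less inflammatory. NTP is an analgesic for chronic pain, a mixture of many small components without protein that is prepared from the skin of rabbits inoculated with vaccinia virus.

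The 4 libraries held between 18795990 and 31901493 expected counts, against 13142588 to 60046937 in the series. The replicate libraries of PA+NTP differed from each other more than those of any other group, with a chi-square of 15.85 per gene against 3.688 for Vehicle. Hepatocyte markers summed to 6842 and 6592 FPKM in Vehicle and to 7034 and 6151 in PA+NTP, as the label of the cells says. Most of this sum came from Trf and from Alb, the gene of serum albumin. Alb was at 2594 and 2529 FPKM in Vehicle and at 2588 and 2333 in PA+NTP. The median log2 fold change of the 10 markers in PA+NTP against Vehicle was -0.49, and all but Trf lay below 0. The rank correlation across 13977 genes of GC content with each library's deviation from the mean of the series ran from 0.335 to 0.415 in these 4 libraries, while it was negative in the PA and LA libraries (-0.556 to -0.466), so that comparisons with PA or LA alone carry a GC difference that PA+NTP against Vehicle does not.

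After palmitate with NTP, 171 genes were higher and 231 were lower than in Vehicle among 14097 genes tested, 1.21% and 1.64% of them and 2.85% together. Among the genes that rose were chemokine genes and genes of macrophages and of the interferon response, and among those that fell were genes of sugar handling, detoxification, bile and plasma proteins. A gene is said to have risen or fallen here where edgeR's quasi-likelihood test gave a Benjamini-Hochberg adjusted p under 0.05 and the fold change was at least 1.5. Of the genes that rose, 83 reached 2-fold and 30 reached 4-fold, and of those that fell, 65 and 12. The median log2 fold change was 0.97 among the higher genes, -0.81 among the lower genes and 0.01 among all genes tested. The ranges of FPKM (read fragments scaled to transcript length and library size) of the groups did not overlap in 4344 genes that were higher and 3085 that were lower in PA+NTP, 30.8% and 21.9% of those tested, and with 2 libraries against 2 an exact permutation test of 1 gene cannot go below p = 0.333.

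The size of these counts rested on single libraries. Without Vehicle replicate 1 or 2, 96 or 89 genes were higher, and without Vehicle replicate 1, 123 were lower. NOISeq, the program named in the study's methods, was rewritten from its published method as an alternative. Its rule at a probability of 0.95 left 6 higher and 8 lower genes. Palmitate alone against the same Vehicle libraries gave 846 higher genes (6.0%) and 1257 lower genes (8.92%), and LA+NTP against Vehicle gave 13 in either direction (0.0922%).

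**Figure D1:**
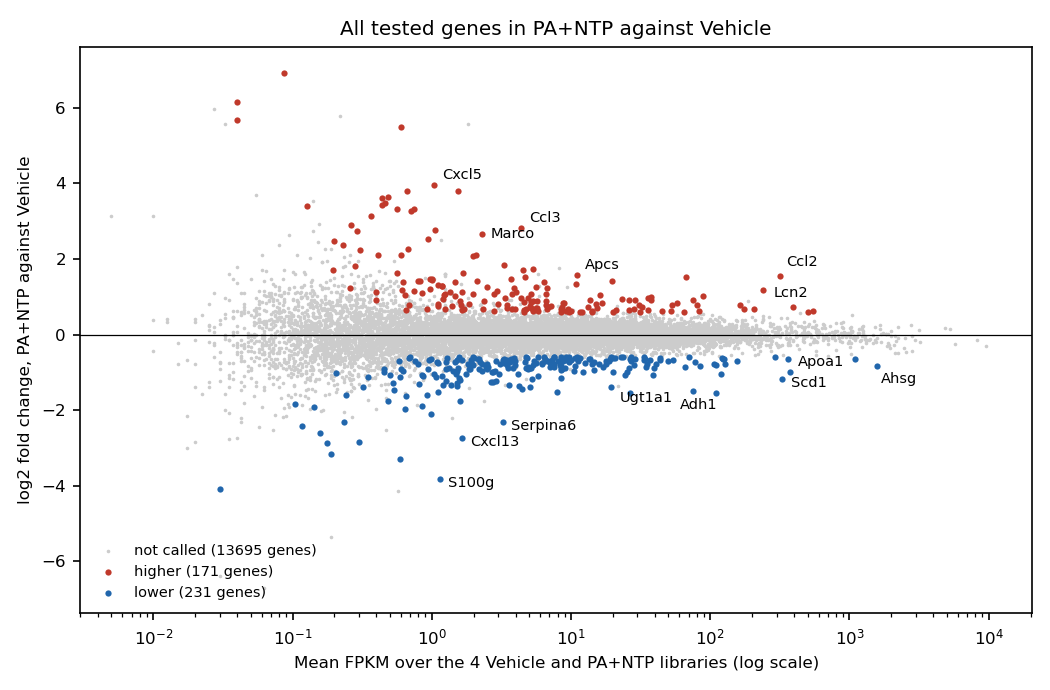
Log2 fold change in PA+NTP against Vehicle (vertical) for 14097 tested genes by their mean FPKM over the 4 libraries (horizontal, log scale), with 171 higher genes in red, 231 lower genes in blue and the rest in gray. Ccl2 and Lcn2 lie among the higher genes with the most reads, and Scd1, Apoa1 and Ahsg among the lower genes with the most reads.

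The cytokine and chemokine list had the highest share of called genes. Of 34 genes on the list of cytokines, chemokines and NF-κB feedback genes, 32 were tested, 13 rose and none fell, 40.6% against a background of 1.21% for higher genes. Their median log2 fold change was 0.58, against 0.01 for all genes tested, and 30 of the 32 lay above 0. The 13 were the chemokine genes Ccl2, Ccl3, Ccl7, Ccl9, Cxcl2, Cxcl5 and Cxcl16, the cytokine genes Il1a, Il1b, Il6 and Tnf, and the adhesion molecule genes Icam1 and Vcam1. With each library left out in turn, 9 to 13 members of the list were called, with 9 without Vehicle replicate 2.

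Ccl2 (gene ID 20296), which encodes the chemokine MCP-1 that draws monocytes, was at 162 and 158 FPKM in the Vehicle libraries and at 478 and 472 in PA+NTP. It was at 393 and 411 FPKM in PA, and at 163 and 170 in LA+NTP. All 4 palmitate libraries thus lay above every other library, and PA+NTP lay above PA. The rise over Vehicle was 2.92-fold (log2 fold change 1.55 ± 0.06 SE, edgeR's adjusted p = 2.68e-09), and without any 1 library it stayed between 1.52 and 1.57.

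Ccl7, a second monocyte chemokine, was at 2.15 and 2.71 FPKM in Vehicle, 8.50 and 8.12 in PA+NTP and 6.48 and 6.12 in PA (log2 fold change of PA+NTP against Vehicle 1.73 ± 0.20, edgeR's adjusted p = 0.000121). Ccl3, which encodes MIP-1α, was at 1.63 and 0.62 FPKM in Vehicle and at 7.20 and 8.01 in PA+NTP (2.81 ± 0.34, edgeR's adjusted p = 0.000145). The neutrophil chemokine gene Cxcl2 was at 1.39 and 1.46 FPKM in Vehicle and at 4.82 and 5.59 in PA+NTP (1.83 ± 0.24, edgeR's adjusted p = 0.000325). In these 3 genes the groups did not overlap, and none of them was called in PA+NTP against PA.

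Cxcl5, another neutrophil chemokine, and the cytokine genes Il1b and Il6 were close to the limit of detection in Vehicle. Cxcl5 had 9 expected counts in the 2 Vehicle libraries and 201 in PA+NTP, a ratio of 16.3 per library size (95% counting interval 8.41 to 36.1). Il1b had 5 and 102 (14.9, 6.17 to 46.8) and Il6 had 3 and 55 (13.4, 4.34 to 66.8), and without Vehicle replicate 2 neither Il1b nor Il6 passed the test. The intervals cover counting error only.

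In a bulk library, more cells of a type and more RNA per cell cannot be told apart, and some macrophage markers moved with these genes. Of 12 markers of Kupffer cells and macrophages, 10 were tested and 3 rose (background 1.21%), the F4/80 gene Adgre1, the scavenger receptor gene Marco and the lysozyme gene Lyz2. The summed level of the 12 was 219.8 and 221 FPKM in Vehicle, 282 and 315 in PA+NTP, 219 and 253 in PA and 198 and 211 in LA+NTP, mostly from the lysosomal gene Cd68. Cd68 was at 203 FPKM in both Vehicle libraries and at 259 and 287 in PA+NTP (log2 fold change 0.40, edgeR's adjusted p = 0.0057), under the fold threshold. The markers did not move together. Clec4f and Cd5l, which mark resident Kupffer cells, had log2 fold changes of -1.62 and -0.46. The complement genes C1qa, C1qb and C1qc were at -0.06, 0.34 and -0.45, and Csf1r was at 0.85. None of these passed the test. The median over the 10 tested markers was 0.37. No marker of the list was at 0 in every library. The neutrophil genes S100a8, S100a9, Ly6g and Mpo and the B cell gene Ms4a1 were at 0 in all 10 libraries. The part of other cells in the rise of the cytokine genes was not tested.

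Marco was at 0.67 and 0.58 FPKM in Vehicle and at 3.36 and 4.59 in PA+NTP (log2 fold change 2.66 ± 0.32, edgeR's adjusted p = 0.000159). Other genes known from macrophages and neutrophils were among the 12 with the largest rise. Acod1, whose enzyme makes itaconate, was at 0.33 and 0.21 FPKM in Vehicle and at 1.93 and 1.72 in PA+NTP (2.76 ± 0.28, edgeR's adjusted p = 5.13e-05). Cybb, the catalytic subunit of the phagocyte NADPH oxidase, was at 0.72 and 0.78 FPKM in Vehicle, 3.05 and 3.39 in PA+NTP and 3.99 and 4.03 in PA (2.07 ± 0.14, edgeR's adjusted p = 2.18e-06). For these 3 genes, both PA+NTP libraries lay above both Vehicle libraries. Clec4d, a lectin of myeloid cells, rose by a log2 fold change of 1.62 but did not pass the test without Vehicle replicate 2.

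Genes of the interferon response and of antigen presentation rose as well. Of 46 on the list, all were tested, 13 rose and none fell, 28.3% against the background of 1.21%, with a median log2 fold change of 0.47 and 43 of 46 above 0. The 13 were Gbp3, Ifi44, Oasl2, Zbp1, Rsad2, Oasl1, Xaf1, Dhx58, Rtp4, Gbp6, Oas1a, Psmb9 and Stat2. This count depended strongly on single libraries. It was 4 without Vehicle replicate 2, 5 without Vehicle replicate 1 or PA+NTP replicate 1, and 23 without PA+NTP replicate 2. PA+NTP replicate 1 exceeded replicate 2 in 44 of the 46 genes (95.7%), against 54.4% of all genes tested.

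Gbp3, a guanylate-binding protein of cell-autonomous defense, was at 2.25 and 1.95 FPKM in Vehicle, 8.78 and 5.05 in PA+NTP and 7.56 and 4.91 in PA (log2 fold change 1.70 ± 0.25, edgeR's adjusted p = 0.000777). Both palmitate groups lay above Vehicle, with a wide gap between their replicates. Oasl2, of the oligoadenylate synthetase-like family of antiviral proteins, was at 3.71 and 3.30 FPKM in Vehicle and at 12.4 and 6.37 in PA+NTP (1.40 ± 0.25, edgeR's adjusted p = 0.00308), and its log2 fold change was 0.87 without PA+NTP replicate 1 and 1.78 without replicate 2, with the call lost without Vehicle replicate 2. Ifi44, induced by interferon, and Zbp1, a sensor of Z-form nucleic acids, rose by 1.47 and 1.33, and both lost the call without either Vehicle library or without PA+NTP replicate 1. Psmb9, a subunit of the immunoproteasome, was at 7.33 and 7.07 FPKM in Vehicle and 12.4 and 11.1 in PA+NTP, with PA at 7.18 and 6.93 and LA+NTP at 10.2 and 9.96 (0.68 ± 0.14, edgeR's adjusted p = 0.00633, lost without Vehicle replicate 2).

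Among 27 acute-phase genes, whose proteins the liver secretes in inflammation, 4 rose and none fell (14.8% against 1.21%), with a median log2 fold change of 0.10, and the count was 4 without each library in turn. Apcs, serum amyloid P, was at 5.62 and 5.31 FPKM in Vehicle and at 21.2 and 12.0 in PA+NTP (1.58 ± 0.23, edgeR's adjusted p = 0.000621). Lcn2, the iron-sequestering lipocalin-2, was at 152 and 138 FPKM in Vehicle, 181 and 180.2 in PA and 375 and 288 in PA+NTP (1.17 ± 0.11, edgeR's adjusted p = 2.3e-05). Both PA+NTP libraries were above all 8 others in Lcn2. Crp, C-reactive protein, went from 15.7 and 16.0 FPKM to 35.1 and 26.7, and Cd14, the lipopolysaccharide co-receptor, from 24.6 and 27.1 to 47.2 and 51.7, with no overlap in either. The remaining 23 genes of the list were not called.

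**Figure D2:**
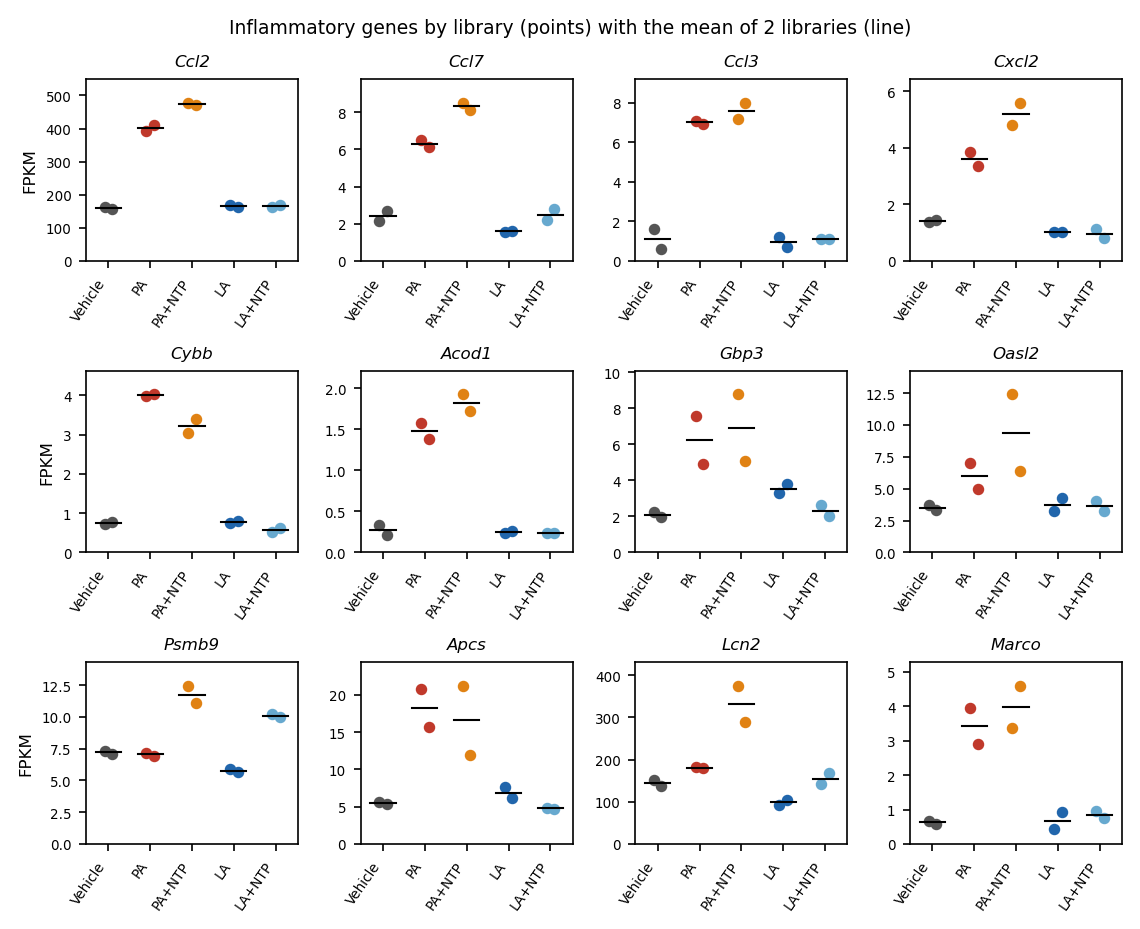
FPKM (vertical, linear from 0) of 12 genes in each library of the 5 groups, with points for libraries and a line at the mean of the 2. In Ccl2, Ccl3 and Cybb both palmitate groups stand above the others whether or not NTP was given. In Lcn2 and Psmb9 PA alone stays closer to Vehicle than to PA+NTP, and in Gbp3, Oasl2 and Apcs the PA+NTP replicates lie far apart.

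Motif matches were counted in the promoters of these genes, since factors of the NF-κB and interferon pathways bind known sequences. RefSeq promoters of GRCm38.p6 (250 bases before to 50 after the start of the gene) were at hand for 136 of the 171 higher genes. The NF-κB motif matched in 21 of them (15.4%), against 6.22% of 11123 tested genes, and the core of the interferon-stimulated response element (ISRE), GAAANNGAAA, in 15 (11%), against 3.67%. Of all 32851 promoters in the table, 4.51% held the first and 3.44% the second. Both strands were searched, and a match describes letters and not binding. Among the 13 cytokine genes that rose, 8 had a promoter, and Il6, Cxcl2 and Ccl9 held the NF-κB motif. Among the 13 interferon-response genes, 9 had one, and Gbp3, Rsad2, Oas1a and Stat2 held the ISRE core. The sequences below are the 130 bases before the start of a chemokine gene and of 2 interferon-response genes that rose, written on the strand of the gene with the matched letters in capitals.
Cxcl2, chr5:90903769-90903898, plus strand, 2 overlapping NF-κB matches: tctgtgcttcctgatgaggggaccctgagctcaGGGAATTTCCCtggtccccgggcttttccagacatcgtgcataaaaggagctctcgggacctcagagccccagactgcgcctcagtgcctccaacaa
Gbp3, chr3:142559914-142560043, plus strand, 2 overlapping ISRE core matches: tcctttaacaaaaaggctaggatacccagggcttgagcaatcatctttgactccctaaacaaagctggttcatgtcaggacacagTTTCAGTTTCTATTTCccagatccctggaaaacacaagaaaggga
Rsad2, chr12:26456453-26456582, minus strand, 1 ISRE core match: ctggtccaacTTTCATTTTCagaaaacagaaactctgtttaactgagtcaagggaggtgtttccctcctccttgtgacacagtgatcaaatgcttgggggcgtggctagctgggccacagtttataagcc
The matches began 97 and 96 bases before the start in Cxcl2, 45 and 39 in Gbp3 and 120 in Rsad2.

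In lipid synthesis, 2 genes were called. Of 25 tested genes of fatty acid and triglyceride synthesis, Pklr rose and Scd1 fell, 8.0% against a background of 2.85% for either direction. The median log2 fold change was -0.02. Without the fold threshold, 7 of the 25 passed, against 10.1% of all tested genes. Scd1 (gene ID 20249), the desaturase that turns saturated into monounsaturated fatty acids, was at 444 and 459 FPKM in Vehicle and at 204 and 206 in PA+NTP. It was at 201 and 212 FPKM in PA, and at 451 and 468 in LA+NTP. The 4 palmitate libraries lay together, at 0.447 times Vehicle in PA+NTP (log2 fold change -1.16 ± 0.06, edgeR's adjusted p = 5.94e-08), and the difference between PA+NTP and PA was -0.07 (edgeR's adjusted p = 0.347).

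Of 28 tested genes of glucose metabolism, 2 rose and 4 fell, 21.4% against the background of 2.85% for either direction. The glycogen synthase gene Gys2 and the liver glucose transporter gene Slc2a2 fell by 0.86 and 0.77 on the log2 scale, and lost the call without Vehicle replicate 1 and replicate 2, respectively. Slc2a1, the widely expressed glucose transporter GLUT1, was at 22.2 and 22.6 FPKM in Vehicle, 23.1 and 24.2 in PA and 39.1 and 39.5 in PA+NTP (0.79 ± 0.06, edgeR's adjusted p = 7.05e-06). Pklr, liver pyruvate kinase, was at 116 and 121 FPKM in Vehicle, 151 and 156 in PA and 204 and 211 in PA+NTP (0.79 ± 0.06, edgeR's adjusted p = 2.37e-06). In Slc2a1 and Pklr the PA+NTP libraries were the highest 2 of the series.

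In the insulin and IGF axis, 1 of 20 genes rose and 3 fell (20% against 2.85%). Igfbp1 (gene ID 16006), an IGF-binding protein that insulin represses in liver, was at 167 and 151 FPKM in Vehicle, 69.4 and 69.0 in PA, 77.0 and 79.7 in PA+NTP and 154 and 156 in LA+NTP (-1.05 ± 0.08, edgeR's adjusted p = 3.9e-06). The palmitate libraries again lay together, below the other groups. Igfbp3, a binding protein of serum IGF, fell by 0.80, and Irs1, an adaptor of the insulin receptor, went from 1.59 and 1.55 FPKM to 1.03 and 0.92. Igfals, the subunit that keeps IGF complexes in the blood, rose by 0.61 and lost the call without Vehicle replicate 2 or PA+NTP replicate 1.

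Enzymes that conjugate drugs and hormones were the list with the highest share of lower genes. Of 44 tested, 9 fell and none rose, 20.5% against 1.64%, with a median log2 fold change of -0.31, and 6 to 10 were called when each library was left out. Ugt1a1, the glucuronosyltransferase that clears bilirubin, was at 26.0 and 29.9 FPKM in Vehicle, 8.53 and 7.79 in PA and 11.9 and 9.84 in PA+NTP (-1.39 ± 0.09, edgeR's adjusted p = 8.67e-07). It shares exons with the other Ugt1a genes, and 58.5% of the 31-base stretches of its transcripts also occur in other genes, so its reads could be split among them. Sult1d1, a sulfotransferase, was at 6.22 and 6.04 FPKM in Vehicle, 6.51 and 6.52 in PA and 3.78 and 3.03 in PA+NTP (-0.87 ± 0.12, edgeR's adjusted p = 0.000328). Ugt2b36 went from 167 and 154 FPKM to 109 and 83.0. Of 38 tested cytochrome P450 genes of families 1 to 3, Cyp2a4, Cyp2c68 and Cyp2c70 fell (7.89% against 1.64%, median of the list -0.26). In Cyp2a4 and Cyp2c68, 58.1% and 62.0% of the 31-base stretches occur in other genes. Cyp2a4 had 87 expected counts in Vehicle and 12 in PA+NTP, and lost the call without Vehicle replicate 2. Cyp2c70, which makes the muricholic acids of mice, was at 34.8 and 32.8 FPKM in Vehicle and 18.5 and 18.6 in PA+NTP (-0.89 ± 0.10, edgeR's adjusted p = 8.3e-05).

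Adh1 and Aldh1a1, enzymes of alcohol and retinoid metabolism, fell as well. Adh1, the main alcohol dehydrogenase of liver, was at 118 and 100.5 FPKM in Vehicle, 44.4 and 40.3 in PA and 48.0 and 31.8 in PA+NTP (-1.48 ± 0.15, edgeR's adjusted p = 5.13e-05), with every palmitate library below all others. Aldh1a1, which oxidizes retinal, went from 353 and 345 FPKM to 238 and 235, and its log2 fold change of -0.59 lay so close to the fold limit that the call was lost without Vehicle replicate 1 or PA+NTP replicate 1. For bile acid synthesis and transport, 3 of 18 tested genes fell (16.7% against 1.64%) and 1 of the 18 lay above 0, with a median of -0.45. Abcb4, the phospholipid pump of the bile canaliculus, was at 52.5 and 50.05 FPKM in Vehicle and 34.8 and 26.1 in PA+NTP (-0.78 ± 0.10, edgeR's adjusted p = 0.000286). Baat, which joins bile acids to taurine or glycine, went from 6.43 and 6.28 FPKM to 4.46 and 2.49, a log2 fold change of -0.90 that was -1.35 without PA+NTP replicate 1 and -0.56 without replicate 2, and that lost the call without either Vehicle library or PA+NTP replicate 2. Abcg8, of the sterol exporter, fell by 0.75 and lost the call without Vehicle replicate 2 or PA+NTP replicate 2.

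Several genes of secreted plasma proteins fell. Apoa1, the main protein of HDL, was at 547 and 440.4 FPKM in Vehicle, 208 and 181 in PA and 276 and 231 in PA+NTP (-0.99 ± 0.14, edgeR's adjusted p = 0.000453). Of 25 tested apolipoprotein and lipoprotein secretion genes, 2 fell, Apoa1 among them (8.0% against 1.64%, median of the list -0.25). Ahsg, fetuin-A, the most abundant gene that fell, was at 2110.3 and 1888 FPKM in Vehicle, 996 and 860.5 in PA and 1283 and 998 in PA+NTP (-0.84 ± 0.10, edgeR's adjusted p = 0.000121). In both genes the groups did not overlap, and neither was called in PA+NTP against PA.

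Serpina6, corticosteroid-binding globulin, fell the most of these, from 6.26 and 4.48 FPKM to 1.46 and 0.73 (-2.31 ± 0.33, edgeR's adjusted p = 0.000492), with PA at 1.05 and 0.60. Of 33 tested complement and coagulation genes, 4 fell and none rose (12.1% against 1.64%, median -0.21), which became 8 without PA+NTP replicate 1 and 1 without PA+NTP replicate 2. PA+NTP replicate 1 lay above replicate 2 in 32 of the 33. Serpind1, heparin cofactor II, went from 54.6 and 49.6 FPKM to 31.04 and 20.04 (-1.06 ± 0.15, edgeR's adjusted p = 0.000448). The antithrombin gene Serpinc1, the factor XIII gene F13b and the lectin pathway protease gene Masp1 fell by 0.66, 0.87 and 0.69, and each lost the call without PA+NTP replicate 2, Serpinc1 and F13b also without Vehicle replicate 1. Cpb2, an inhibitor of clot lysis, was among the most abundant genes that rose, from 403 and 399 FPKM to 581 and 646, with PA higher still at 717 and 754, and lost the call without any of 7 libraries.

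**Figure D3:**
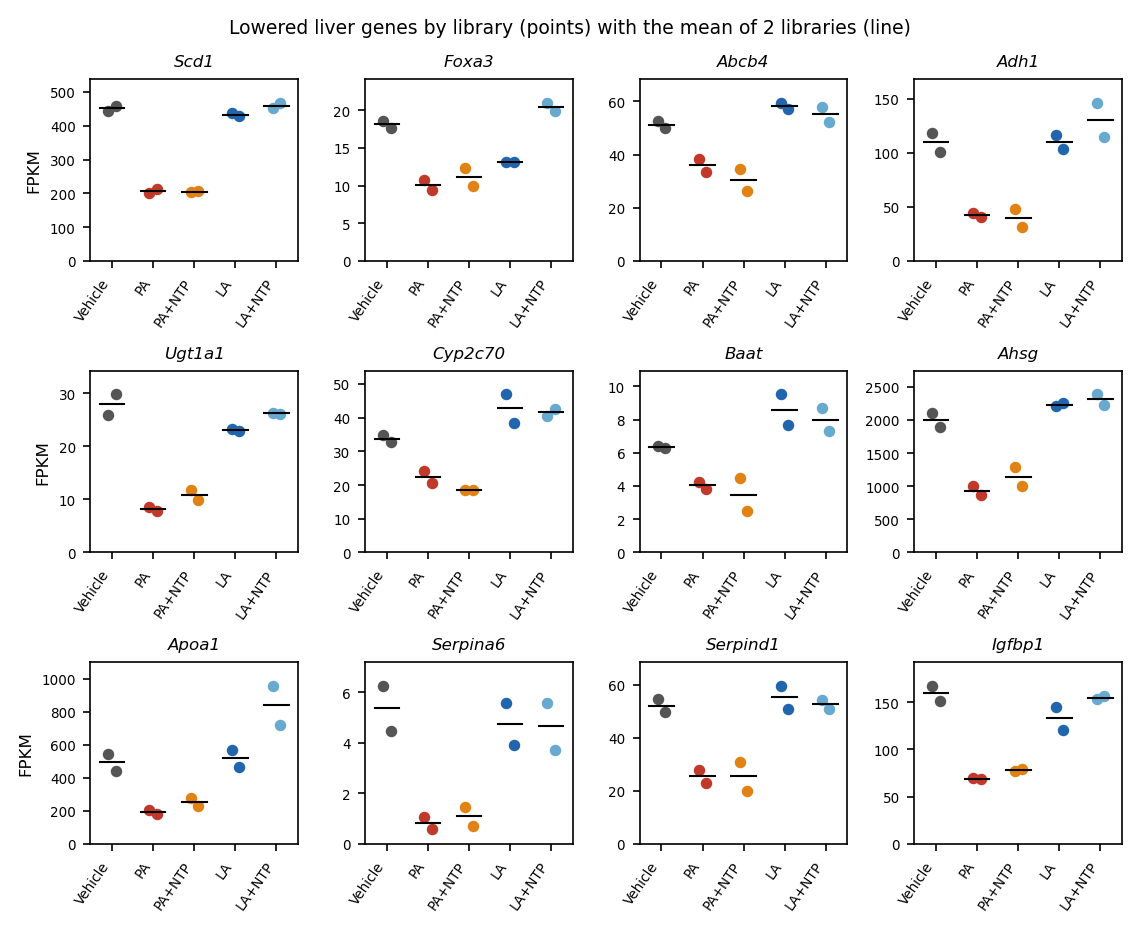
FPKM (vertical, linear from 0) of 12 metabolic and secretory genes in each library of the 5 groups, with points for libraries and a line at the mean of the 2. In Scd1, Adh1 and Igfbp1 the PA and PA+NTP libraries lie together below Vehicle, with LA+NTP close to Vehicle.

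Among 20 hepatocyte transcription factor genes, Foxa3 and Esr1 fell (10.0% against 1.64%, median of the list -0.15). Foxa3, a forkhead factor of liver genes, was at 18.6 and 17.6 FPKM in Vehicle, 10.8 and 9.40 in PA and 12.4 and 9.92 in PA+NTP (-0.72 ± 0.10, edgeR's adjusted p = 0.000374). The estrogen receptor gene Esr1 fell by 0.66 and lost the call without either Vehicle library or PA+NTP replicate 2. Matches to GTTAATNATT, the core of the site of the liver factors HNF1, were counted in the promoters of the lower genes. They stood in 10 of the 169 with a promoter (5.92%) and in none of 136 higher genes, against 0.369% of tested genes and 0.399% of all promoters. The 10 included Ugt1a1, Igfbp1, F13b and Sult1d1. The 130 bases before the start are shown for the 2 of them with the lowest adjusted p among the named genes, with the match in capitals.
Ugt1a1, chr1:88211829-88211958, plus strand: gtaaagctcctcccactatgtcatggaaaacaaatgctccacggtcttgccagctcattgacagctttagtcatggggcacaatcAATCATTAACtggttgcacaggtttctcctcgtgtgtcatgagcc
Igfbp1, chr11:7197657-7197786, plus strand: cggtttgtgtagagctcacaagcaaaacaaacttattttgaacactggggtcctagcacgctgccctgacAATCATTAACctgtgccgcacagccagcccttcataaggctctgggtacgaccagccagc
The matches began 45 and 60 bases before the start and carried the core on the opposite strand.

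Of 33 tested genes of the urea cycle and amino acid breakdown, Tdo2 and Gnmt fell (6.06% against 1.64%, median -0.12). Tdo2, the liver enzyme that starts tryptophan breakdown, was at 34.3 and 32.6 FPKM in Vehicle, 36.8 and 34.0 in PA and 20.9 and 13.2 in PA+NTP (-1.0 ± 0.16, edgeR's adjusted p = 0.00152). Glud1, mitochondrial glutamate dehydrogenase, went from 434 and 449 FPKM to 296 and 279 (-0.64 ± 0.06, edgeR's adjusted p = 1.43e-05). The glycine methyltransferase gene Gnmt passed narrowly (edgeR's adjusted p = 0.0465) and lost the call without any of 7 libraries. Without PA+NTP replicate 1 the list had 8 called genes. Acaa1b, a peroxisomal thiolase, was the only 1 of 30 fatty acid oxidation genes to fall (3.33% against 1.64%), by 0.82, and lost the call without PA+NTP replicate 2. Of the 30, 2 lay above 0, and the median was -0.18. Without the fold threshold, 13 of the 30 passed, against 10.1% of all tested genes.

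In 10 further lists 1 member was called, 2.44% to 5.56% of those tested, close to the background of 2.85%. With the fold threshold, these are results about single genes. Without it, 10.1% of all tested genes passed. In these lists, 9 of 18 major urinary protein, 13 of 41 cytoskeleton, 7 of 26 antioxidant, 7 of 23 AP-1 and 5 of 26 p53 target genes did. The other lists lay near or below that share. Mgll, the lipase of monoacylglycerol, fell among 19 lipid droplet genes, Sod2, mitochondrial superoxide dismutase, rose among 26 antioxidant genes, and Bid, a pro-apoptotic BCL-2 family gene, rose among 26 p53 targets. Fos fell among 23 AP-1 genes, Mapk8ip1, a JNK scaffold, among 21 AMPK and JNK pathway genes, Dbp among 21 clock genes, Acta1 among 41 cytoskeleton genes and Mup20 among 18 major urinary protein genes. Mcm3, of the replicative helicase, rose among 34 cell cycle genes. Psmb9 was the 1 of 40 proteasome genes that rose. Of these, Sod2, Bid, Fos, Mapk8ip1, Dbp, Acta1, Mup20 and Mcm3 lost the call without at least 1 library, and Mgll did not. Among 74 extracellular matrix and integrin genes, 5 rose and 2 fell (9.46% against 2.85%), led by the collagenase gene Mmp13, with 9 expected counts in Vehicle and 144 in PA+NTP (ratio 11.7, 95% counting interval 5.98 to 26.0), and Mmp9, with 3 and 47 (11.4, 3.68 to 57.4). Mmp12, the macrophage elastase, went from 1.93 and 1.70 FPKM to 3.86 and 4.27. Mmp9 lost the call without either Vehicle library or PA+NTP replicate 1. Mmp13 was higher still in PA (log2 fold change 4.70 over Vehicle) and was called lower in PA+NTP against PA (-1.20, edgeR's adjusted p = 0.00135). Mmp9 was not called in PA against Vehicle and was called higher in PA+NTP against PA (2.17, edgeR's adjusted p = 0.0158). Mmp12 was not called in PA+NTP against PA.

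None of the tested members was called in the lists for PPARα targets outside oxidation (24), cholesterol synthesis (26), the unfolded protein response (24), ATF4 targets (26), heat shock (17), mitochondrial biogenesis and DNA repair (24), nuclear oxidative phosphorylation genes (88), mitochondrial ribosomal proteins (78), cytosolic ribosomal proteins (81), ceramide and sphingolipid enzymes (23), and autophagy and lysosome (31). Without the fold threshold, 10.1% of all tested genes had an adjusted p under 0.05 in edgeR's test. Of these lists, the unfolded protein response (10 of 24), autophagy and lysosome (5 of 31), cholesterol synthesis (4 of 26) and heat shock (2 of 17) lay above that share, and the others lay below it, with 5 of 88 for the oxidative phosphorylation genes and 4 of 78 for the mitochondrial ribosomal proteins. DESeq2 called no member of the 11 lists. The median log2 fold change of the unfolded protein response genes was 0.14, and 0.50 in PA against the same Vehicle libraries. That of the oxidative phosphorylation genes was -0.06 and -0.05.

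The genes that the study text names did not pass the test against Vehicle. The study's qPCR found Ppargc1b, Cox7c and Cox8a higher with NTP in FFA-treated cells. It also found Ppargc1b higher with NTP alone, without an FFA, a condition that no library of the series covers. Ppargc1b, the coactivator PGC-1β, was at 1.27 and 1.17 FPKM in Vehicle, 0.72 and 0.88 in PA and 1.71 and 1.66 in PA+NTP (log2 fold change of PA+NTP against Vehicle 0.44 ± 0.19, edgeR's adjusted p = 0.158). Ogg1, a DNA glycosylase of oxidative damage, was at 9.96 and 9.70 FPKM in Vehicle and at 11.3 and 13.9 in PA+NTP (0.34 ± 0.12, edgeR's adjusted p = 0.0922). The cytochrome c oxidase subunit genes Cox7c and Cox8a differed from Vehicle by 0.30 ± 0.09 and 0.09 ± 0.09 (edgeR's adjusted p = 0.0573 and 0.588). The PA libraries were below the Vehicle and PA+NTP libraries in all 4 genes. All 4 were called higher in PA+NTP against PA, a contrast that called 8.74% of all tested genes higher. The study named Ppargc1b and Ogg1 from RNA-seq of these same libraries, and followed Ppargc1b, Cox7c and Cox8a by qPCR. These calls are therefore not an independent test of the study's statements. The log2 fold changes were 0.99 in Ppargc1b, 1.00 in Ogg1, 1.25 in Cox7c and 1.01 in Cox8a (edgeR's adjusted p of 0.00094 or lower). This contrast carries the GC difference of the PA libraries.

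**Figure D4:**
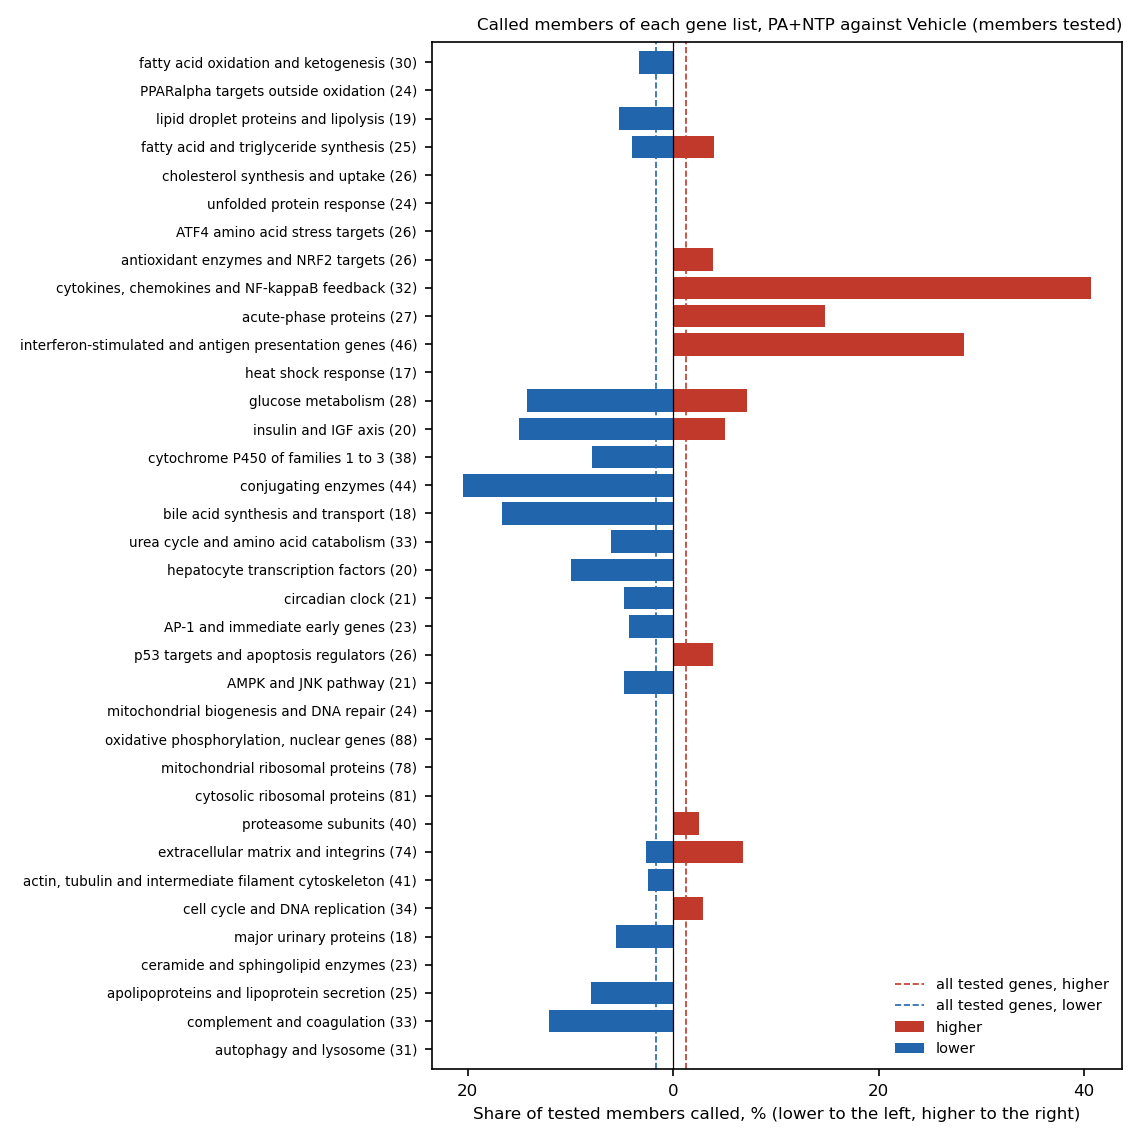
Share of the tested members of each of 36 gene lists that fell (blue, to the left) or rose (red, to the right) in PA+NTP against Vehicle, in percent, with the number tested in parentheses and dashed lines at the shares of all tested genes, 1.64% lower and 1.21% higher. The cytokine list reaches 40.6% and the interferon list 28.3% to the right, and conjugating enzymes reach 20.5% to the left.

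Palmitate alone was set beside palmitate with NTP to see which residual genes PA had also moved. The contrasts share libraries, so values are given side by side and no overlap was tested. The part of the GC difference between the PA and the other libraries in the PA values was not tested. PA+NTP against PA called 1232 genes higher (8.74%) and 721 lower (5.11%). Several residual genes differed little between these groups. The log2 fold changes of PA and PA+NTP against Vehicle were -1.09 and -1.16 in Scd1, -1.17 and -1.05 in Igfbp1, -1.34 and -1.48 in Adh1 and 1.36 and 1.55 in Ccl2. None of the 4 was called in PA+NTP against PA, but Ccl2 was higher in PA+NTP by 0.18 ± 0.06 with edgeR's adjusted p = 0.0151, under the fold threshold.

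Other genes called in PA+NTP against Vehicle were not called in PA against Vehicle, but were called in PA+NTP against PA. The log2 fold changes of PA and PA+NTP against Vehicle were 0.35 and 1.17 in Lcn2, 0.24 and 0.91 in Cd14, 0.11 and 0.79 in Slc2a1, and -0.00 and 0.68 in Psmb9. In the genes that fell they were 0.12 and -0.87 in Sult1d1, 0.11 and -1.0 in Tdo2 and 0.07 and -0.65 in Mup20. Lcn2 in PA was under the fold threshold, with edgeR's adjusted p = 0.0161. GC content was 53.4% to 55.5% in those that rose and 34.7% to 43.0% in those that fell. Its median was 56.6% in genes higher and 43.7% in genes lower in PA+NTP against PA. The part of GC content in these values was not tested. The difference between PA+NTP and PA was 0.82 in Lcn2 (edgeR's adjusted p = 3.27e-05), 0.67 in Slc2a1 (2.9e-06 by edgeR) and -1.11 in Tdo2 (8.65e-05 by edgeR). Mif, a cytokine with many sources, moved the opposite way in PA and in PA+NTP, at 421 and 425 FPKM in Vehicle, 254 and 299 in PA and 657 and 673 in PA+NTP, with 525 and 578 in LA+NTP. Its rise over Vehicle (0.63 ± 0.08) lost the call without PA+NTP replicate 2, and 46.1% of its 31-base stretches occur in other genes. Hmga1, a chromatin protein of growing cells, was at 293 and 296 FPKM in Vehicle, 271 and 287 in PA and 419 and 567 in PA+NTP, with 73.3% of its stretches in other genes and the call lost without PA+NTP replicate 2.

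**Figure D5:**
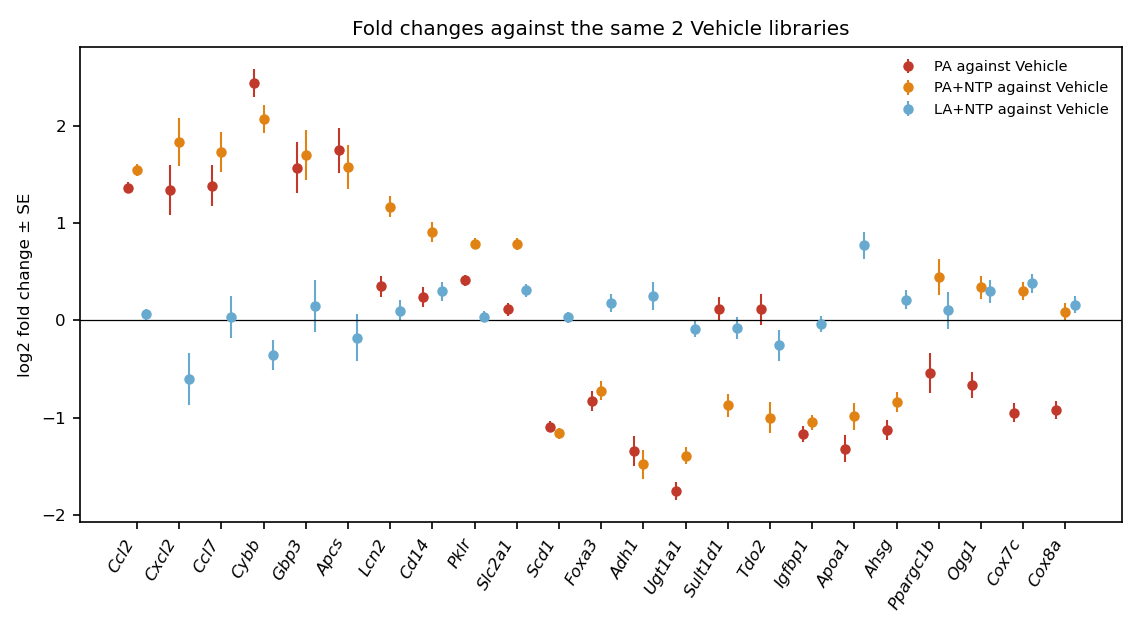
Log2 fold change against the same 2 Vehicle libraries (vertical, bars ± SE of the edgeR fit) for 23 genes in PA (red), PA+NTP (orange) and LA+NTP (blue). Scd1, Ccl2 and Igfbp1 have red and orange points close together. Lcn2, Slc2a1, Sult1d1 and Tdo2 have the red point nearer to 0 than the orange point, and Cox7c and Cox8a have the reverse.

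PA+NTP was compared with LA+NTP, the group that had the same pretreatment and a different FFA, so that NTP was present on both sides. The FFAs also differed in dose, 200 µM palmitate against 12 µM linoleate, so their kind and dose cannot be told apart here. Here 194 genes were higher (1.38%) and 345 lower (2.45%). The cytokine list had 12 of 32 tested members higher and 1 lower, 15 of 46 interferon-response genes were higher, and 12 of 44 conjugating enzymes were lower. Ccl2 was 1.48 and Ccl3 2.75 above LA+NTP on the log2 scale, and Scd1 was at -1.19, Igfbp1 at -1.01 and Apoa1 at -1.76. Apoa1 was at 958 and 723 FPKM in LA+NTP, above the Vehicle libraries, and Lcn2 was at 142 and 167, close to the Vehicle libraries. Psmb9, at a log2 difference of 0.19, Mif at 0.24 and Slc2a2 at -0.30 were under the fold threshold between these groups.

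The largest single changes came from genes with few reads. Cxcl13, a B cell chemokine, fell from 3.25 and 2.46 FPKM to 0.37 and 0.49 (-2.73 ± 0.33, edgeR's adjusted p = 0.00015), in the opposite direction to the other chemokines named. S100g, a calcium-binding protein, had 41 expected counts in Vehicle and 4 in PA+NTP, a ratio of Vehicle over PA+NTP of 14.1 (95% counting interval 5.09 to 54.0), and lost the call without Vehicle replicate 1 or PA+NTP replicate 2. The organic anion transporter family gene Slc22a27 fell from 1.69 and 1.52 FPKM to 0.42 and 0.33, and 47.4% of its stretches occur in other genes. Fam81a and Cavin2 fell from 2.65 and 2.24 FPKM to 0.81 and 0.66 and from 1.79 and 1.48 to 0.62 and 0.54. Slc22a27, Fam81a and Cavin2 were called lower in PA against Vehicle, and lower again in PA+NTP against PA (log2 fold changes -0.91, -0.62 and -0.70). Pdzrn3, an E3 ligase with PDZ domains, rose from 1.00 and 0.58 FPKM to 4.46 and 2.30 (2.10 ± 0.30, edgeR's adjusted p = 0.000484). Its log2 fold change was 0.97 in PA against Vehicle, and it was called higher in PA+NTP against PA (1.12). Guca2b, the peptide uroguanylin, had 5 expected counts in Vehicle and 102 in PA+NTP (14.9, 6.17 to 46.8) and lost the call without Vehicle replicate 2. Selenbp2, a selenium-binding protein, went from 46.2 and 31.9 FPKM to 20.8 and 6.46, a log2 fold change of -1.55 that was -0.95 without PA+NTP replicate 2 and -2.58 without replicate 1. It lost the call without either Vehicle library or PA+NTP replicate 2, and with DESeq2, and 67% of its stretches occur in other genes. Cxcl13, S100g, Guca2b and Selenbp2 were not called in PA+NTP against PA.

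The PA+NTP replicates differed in a directed way. Replicate 1 was above replicate 2 in 185 of the 231 genes that fell (80.1%) and in 107 of the 171 that rose (62.6%), against 54.4% of all tested genes, and Vehicle replicate 1 was above replicate 2 in 149 of the 231 (64.5%) against 46.5%. Of 85 named genes called against Vehicle, 43 kept the call without each library in turn. These include Ccl2, Ccl3, Ccl7, Cxcl2, Cybb, Acod1, Marco, Apcs, Lcn2, Cd14, Pklr and Slc2a1 among the higher genes, and Scd1, Adh1, Ugt1a1, Igfbp1, Apoa1, Ahsg, Serpina6, Serpind1 and Tdo2 among the lower genes.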

How the data were processed

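RNA from primary mouse hepatocytes was sequenced in 10 libraries of 5 groups, with 2 replicates each, and libraries were assigned to groups by their titles. HISAT and Bowtie2 are given by the submitters as aligners, RSEM as the counter and mm10 as the build, without versions. The authors deposited, for each library, RSEM expected counts per gene, which are estimated counts that need not be whole, and FPKM values. A gene missing from a library's table was set to 0, and expected counts were rounded to whole numbers. Whether counting used strand is not given in the sources used here.

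The libraries held 13142588 to 60046937 expected counts. All 10 were fitted together in edgeR 4.0.16 (R 4.3.3) with TMM scaling (factors 0.9766 to 1.0365) and the tool's filter on low counts, which kept 14097 genes and dropped 3958. Contrasts of the 5 group means were tested with the quasi-likelihood F test and Benjamini-Hochberg adjustment, and a gene was called where its adjusted p fell below 0.05 and it differed 1.5-fold or more. The common biological coefficient of variation was 0.0682. SE is the log2 fold change divided by the root of F. FPKM served for levels. The fit was tested on simulated data. The members and the 36 gene lists were chosen with earlier results of these data known. The text names the 12 genes with the largest rise and fall at a mean FPKM of at least 1 and at least 10 counts in each library of the higher group, leaving out clone-named and small RNA genes, up to 4 called genes per list and direction, the 10 called genes with the highest FPKM, 4 genes of the study text and the 8 with the largest rise and fall against LA+NTP. Further called list members are named without values, and some genes that meet these rules are not reported here. Of 18055 genes, 17998 matched RefSeq (GRCm38.p6) by gene ID and 11 by accession. Alternatives used DESeq2 1.42.0, limma 3.58.1 on log2 values of FPKM plus 1 or 0.1, NOISeq rewritten in Python 3.11.15, other filters and scalings, removal of GC or length trends, and each library left out. Count ratios carry exact 95% intervals for counting error.

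Over all tested genes, same-numbered libraries did not deviate together (r from -0.0692 to 0.127 over pairs of groups), so the replicate numbers were not used as pairs. This check cannot show a difference that only some genes share. In the complement and coagulation list, replicate 1 lay above replicate 2 in 97.0% of genes in PA+NTP and in 87.9% in Vehicle. All tested genes gave 54.4% and 46.5%.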

Additional observations from a re-analysis of the deposited data

Results flagged for a closer look

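The direct test of PA+NTP against LA+NTP, with palmitate or linoleate after the same pretreatment, drew attention to genes that differed between these groups. Their FFAs differed in kind and in dose. In all, 194 genes were higher and 345 were lower in PA+NTP than in LA+NTP by edgeR's test. Among the genes named, the phagocyte oxidase gene Cybb (log2 difference 2.43), the chemokine gene Cxcl2 (2.44) and the serum amyloid P gene Apcs (1.76) were above Vehicle in PA+NTP and below it in LA+NTP, in both libraries of each group. None of them was called in LA+NTP against Vehicle, with log2 fold changes of -0.36, -0.60 and -0.18.

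The reverse held for genes of glycogen, lipid and bile acid handling, Gys2 (-1.06), Acaa1b (-1.35), Apoa1 (-1.76) and Baat (-1.23), for Cyp2c68 (-1.20), Cyp2c70 (-1.19), Aldh1a1 (-0.71) and Selenbp2 (-2.14), for the plasma protein genes Ahsg (-1.05), Serpinc1 (-0.93) and Masp1 (-0.77), and for Foxa3 (-0.90) and Acta1 (-0.89). Each was called in PA+NTP against LA+NTP. Only Apoa1 among them was called in LA+NTP against Vehicle, a contrast that called 13 of all tested genes (0.0922%). The flagged genes were picked for lying on opposite sides of Vehicle. The share of all tested genes that do so was not counted.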

How the results depend on the processing

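Against Vehicle, 171 genes rose and 231 fell. Without the fold threshold these counts were 634 and 791, with limma on log2(FPKM + 1) 111 and 115, with the NOISeq rule at 0.95 6 and 8, and with the NOISeq rule at 0.8 the lower genes numbered 115. Leaving out single libraries gave 89 to 185 higher and 123 to 321 lower genes. Against LA+NTP the 194 higher and 345 lower genes became 986 and 1096 without the fold threshold and 117 and 178 with limma on log2(FPKM + 1), and ran from 142 to 221 and from 204 to 439 with a library left out. DESeq2 gave 134 and 220 against Vehicle, and removal of the GC trend 155 and 267. The fit with the replicate block gave 191 and 261 against Vehicle and 200 and 372 against LA+NTP, and a block by the numbers in the deposited file names 153 and 282. The replicate numbers in the labels and files are not the same for every library. The check of deviations over all tested genes gave no sign of pairing, but cannot show a difference that only some genes share. No called gene among those named changed direction under any alternative. NOISeq was not run for LA+NTP. With 2 libraries a group, few expected counts in Vehicle limit genes such as Il6 and Mmp9.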

Other observations

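The genes in these sentences were chosen after their values were seen. Arg2, the mitochondrial arginase, was at 3.18 and 3.30 FPKM in Vehicle and at 7.84 and 8.02 in PA+NTP (log2 fold change 1.26, edgeR's adjusted p = 0.000186), and Slc7a2, a transporter of arginine and lysine, at 10.6 and 10.3 FPKM against 24.4 and 19.6 (1.05, edgeR's adjusted p = 5.01e-06). The inducible nitric oxide synthase gene Nos2 stayed at 0.17 FPKM or below in the Vehicle, PA, PA+NTP and LA+NTP libraries.

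Hif1a, the oxygen-sensitive transcription factor subunit, was at 39.0 and 42.7 FPKM in Vehicle and 61.2 and 66.0 in PA+NTP (0.61, edgeR's adjusted p = 9.29e-05), with PA at 69.5 and 72.4. Pkm, the pyruvate kinase of growing cells, was at 62.2 and 66.7 FPKM in Vehicle and 108 and 94.4 in PA+NTP (0.62, edgeR's adjusted p = 0.000192).

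Nfkbie, an inhibitor of NF-κB, was at 4.84 and 4.44 FPKM in Vehicle and 9.10 and 8.26 in PA+NTP (0.88, edgeR's adjusted p = 0.000818), and Irak3, a brake on Toll-like receptor signaling, at 4.06 and 3.89 FPKM against 7.52 and 7.45 (0.89, edgeR's adjusted p = 0.000363). Among the genes that fell, Hjv, the hemojuvelin co-receptor that drives hepcidin, was at 7.05 and 7.41 FPKM in Vehicle and 3.56 and 2.96 in PA+NTP (-1.18, edgeR's adjusted p = 7.29e-05). Pparg, a lipid-sensing nuclear receptor, went from 11.4 and 10.98 FPKM to 6.32 and 5.89 (-0.90, edgeR's adjusted p = 0.000108).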
